A study of Mus musculus with 12 samples.

Results

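The Frizzled genes encode the cell-surface receptors for Wnt proteins. All 9 of Fzd1 to Fzd9 were read from the deposited table of normalized counts, which held 24390 gene symbols, and they were chosen by symbol as a receptor family. The family was selected on the normalized counts of Fzd3 and Fzd9, which were already higher in transgenic than in wild-type hearts given saline, so the values of all 9 genes in that contrast are given as a description, with no test. All 9 passed the filter on low values, which kept genes averaging at least 10 normalized counts.

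The libraries were made from total RNA of cardiac ventricles of C57BL/6 mice aged 8 weeks, with 3 libraries in each of 4 groups. TG_AAV hearts carried the Myh6-dCas9VPR transgene and received the AAV9 TRISPR vector that the labels name with Mef2d. TG_saline hearts carried the same transgene and received saline. WT_AAV hearts were wild-type and received the vector, and WT_saline hearts were wild-type and received saline. The transgene encodes a Cas9 that cannot cut DNA, joined to the VPR activator, and the Myh6 promoter that drives it is active in heart muscle cells, while the RNA came from all cells of the ventricle. The design asks how heart transcripts differ when the endogenous Mef2d gene is activated. A vector aimed at another gene, or at none, was not analysed here.

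A Wnt protein binds the outer domain of a Frizzled receptor, which spans the membrane and passes the signal to Dishevelled inside the cell. With the co-receptors Lrp5 or Lrp6 this stabilises beta-catenin, which then acts with TCF and LEF factors on target genes. With other partners it directs cell polarity or calcium release. In the heart, Wnt signals are known from development and from the response to injury, and the adult organ holds several Frizzled receptors at the same time.

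Library depth ran from 10233281 to 14911986 recovered reads. Mef2d, the targeted gene, stood between 1897 and 2231 normalized counts in TG_AAV hearts, against 833 to 1178 in the 9 control hearts. The labels do not state whether each library is a separate animal, and the p-values refer to the spread among these libraries. Some libraries stood apart within their group. Xist was at 7415 to 16834 normalized counts in 5 libraries and at 2.99 to 16.6 in the others. The atrial transcript Myl7 exceeded 1000 in TG_AAV 1, WT_AAV 1 and WT_AAV 3. It was at 728 in TG_saline 1 and 258 in TG_saline 3, and at most 19.1 in the remaining libraries. Omitting the libraries above 1000, as done below, keeps both of those TG_saline libraries. The skeletal muscle transcript Myh2 was present in 6 libraries at 944 to 1272. WT_AAV 3 and WT_saline 3 stood apart from the other wild-type libraries on the first principal component, which held 31.8% of their variance. All 6 markers of ventricular heart muscle were detected in every group.

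The sequences just upstream of the transcription start are shown for the member with the largest difference between groups, Fzd9, and for the most abundant member, Fzd4, since the data speak to the transcript level of each. RefSeq start regions on GRCm38.p6 were at hand for 5 of the 9 genes, namely Fzd1, Fzd4, Fzd5, Fzd7 and Fzd9. The genes lie apart in the genome, with Fzd1 and Fzd9 on chromosome 5, Fzd5 and Fzd7 on chromosome 1, Fzd2 on 11, Fzd3 on 14, Fzd4 on 7, Fzd6 on 15 and Fzd8 on 18. Each line gives 250 bases on the strand of the gene, 5′ to 3′, with every GC box (GGGCGG, or CCGCCC on the other strand) in capitals.
Fzd9, chr5:135251048-135251297, minus strand: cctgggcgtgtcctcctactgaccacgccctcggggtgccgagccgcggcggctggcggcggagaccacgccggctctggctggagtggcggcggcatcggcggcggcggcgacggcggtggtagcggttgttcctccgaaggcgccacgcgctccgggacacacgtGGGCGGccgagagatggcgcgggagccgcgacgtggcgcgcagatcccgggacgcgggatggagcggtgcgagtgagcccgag
Fzd4, chr7:89404116-89404365, plus strand: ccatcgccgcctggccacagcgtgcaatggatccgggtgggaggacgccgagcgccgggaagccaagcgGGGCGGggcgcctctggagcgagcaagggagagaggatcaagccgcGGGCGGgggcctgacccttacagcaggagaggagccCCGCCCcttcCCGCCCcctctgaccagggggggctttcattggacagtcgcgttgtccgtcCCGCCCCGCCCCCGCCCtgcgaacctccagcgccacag
The Fzd9 region was 76.4% G and C and held 42 CpG dinucleotides. The Fzd4 region was 72.8% G and C and held 25, against medians of 52% and 6 over 27025 start regions. The 2 regions differ in the GC box, with 1 match in Fzd9 and 7 in Fzd4, some of those in Fzd4 joined end to end. The box was found in 32.9% of all start regions of this length. Searches on both strands for the TCF/LEF motif (CTTTGAT or CTTTGAA) and for the MEF2 consensus gave no match in any of the 5 Frizzled regions, against 7.67% and 0.518% of all regions. TATAAA occurred once in the Fzd1 region and in none of the other 4, against 13.0% of all regions. A match or its absence describes these letters only.

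Per kilobase of exon, the summed Frizzled level overlapped between the 4 groups, while the shares of some receptors differed between transgenic and wild-type hearts. The normalized counts per kilobase of the 9 genes summed to 429 ± 29.2 in TG_AAV hearts, 441 ± 26.2 in TG_saline hearts, 425 ± 34.1 in WT_AAV hearts and 411 ± 13.5 in WT_saline hearts (SD, n = 3 each), and the ranges of the groups overlapped. Fzd3 and Fzd9 together made up 16.3% ± 0.656 of that sum in TG_AAV hearts and 12.2% ± 1.91 in TG_saline hearts. Their share was 4.35% ± 0.642 in WT_AAV hearts and 4.62% ± 0.845 in WT_saline hearts. Every transgenic library held a larger share of these receptors than any wild-type library, with 10.3% as the lowest transgenic value and 5.39% as the highest wild-type value. Fzd4 supplied 25.7% ± 0.686 of the pool in TG_AAV hearts, 29.1% ± 3.01 in TG_saline hearts, 34.5% ± 3.58 in WT_AAV hearts and 34.4% ± 3.29 in WT_saline hearts. Shares within a pool are tied to each other, and the choice of Fzd3 and Fzd9 used the saline groups, so no test is given.

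**Figure D1:**
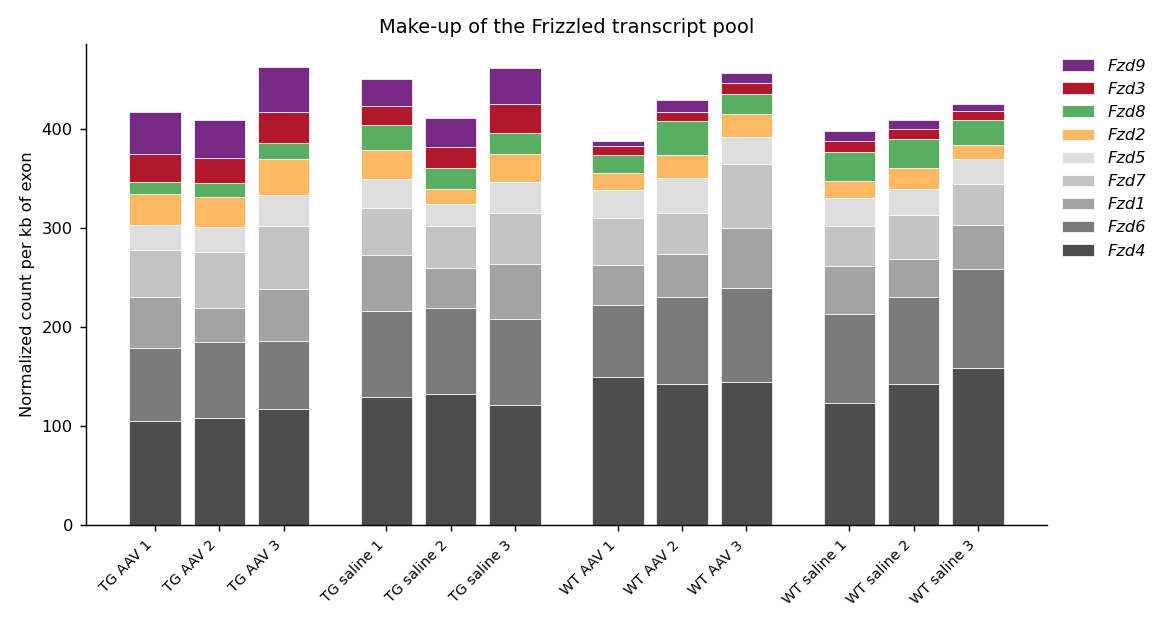
Stacked bars show, for each of the 12 libraries, the normalized count per kilobase of exon of the 9 Frizzled genes, with colour for Fzd9, Fzd3, Fzd8 and Fzd2 and grey for the others. The bar heights overlap between groups, while the Fzd3 and Fzd9 segments are taller in the 6 transgenic libraries than in the 6 wild-type libraries.

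The order of the receptors by level per kilobase placed Fzd4 on top and Fzd6 next in all 4 groups. Mean levels of Fzd4 were 110 ± 6.06 in TG_AAV hearts and 142 ± 18.1 in WT_saline hearts, and those of Fzd6 were 72.9 ± 4.21 and 92.3 ± 6.29 in the same groups (normalized counts per kilobase, SD, n = 3 each). Fzd1 and Fzd7 followed in changing order, and within each group they differed by less than the sum of their SDs. Fzd9 took rank 5 in both transgenic groups, at 42.0 ± 4.01 in TG_AAV hearts and 30.9 ± 4.82 in TG_saline hearts, and rank 9 in both wild-type groups, at 9.24 ± 3.47 in WT_AAV hearts and 8.59 ± 1.80 in WT_saline hearts. In wild-type hearts Fzd3 and Fzd9 did not differ beyond their spread. Fzd8 took rank 9 in TG_AAV hearts, at 14.1 ± 1.96, and rank 5 in WT_saline hearts, at 27.9 ± 2.36. In TG_AAV hearts Fzd3 and Fzd5 lay within their spread of each other, and in TG_saline hearts so did Fzd2, Fzd3, Fzd5 and Fzd8. Rank 5 was not separated by spread either. Fzd9 lay within the spread of Fzd1 in TG_AAV hearts (46.2 ± 10.8) and of Fzd5 in TG_saline hearts (28.1 ± 4.94). Fzd8 lay within the spread of Fzd5 in WT_saline hearts (26.7 ± 1.82).

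**Figure D2:**
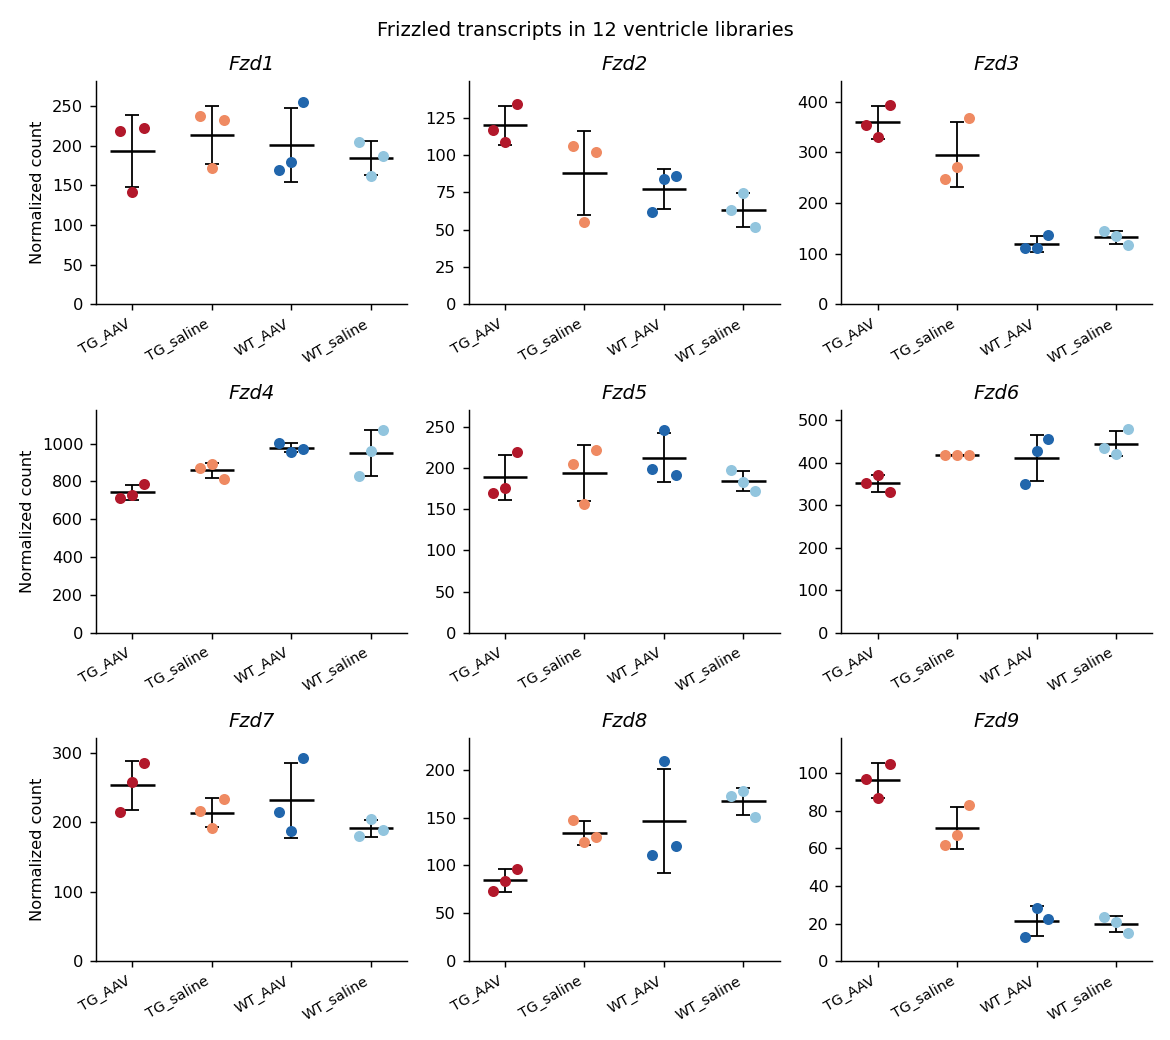
Normalized counts of the 9 Frizzled genes are plotted by group. Each point is a library, the horizontal line is the mean of 3 libraries and the bar is its SD. Fzd3 and Fzd9 lie higher in all 6 transgenic libraries than in all 6 wild-type libraries, and Fzd4 and Fzd8 are lowest in the TG_AAV libraries.

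Fzd3 acts in planar cell polarity and in the guidance of growing axons in mice. Its normalized counts were 354, 330 and 394 in TG_AAV hearts, 247, 271 and 369 in TG_saline hearts, 110, 111 and 137 in WT_AAV hearts, and 144, 134 and 117 in WT_saline hearts. No transgenic library overlapped a wild-type one, and TG_saline 3 lay within the TG_AAV range. Between hearts that all received the vector, Fzd3 rose to 359 ± 32.3 in TG_AAV hearts, against 119 ± 15.4 in WT_AAV hearts (SD, n = 3 each). The log2 difference was 1.59 (SE 0.15, limma, adjusted p = 3.37e-05), which is 3.00-fold. TG_AAV against WT_AAV shares no library with the saline contrast used in the choice, although the fit takes its estimate of the spread from all 4 groups. The members were also chosen with earlier results of these data known. The p-values of Fzd3 and Fzd9 against WT_AAV are therefore not taken as independent of the choice. In that saline contrast, TG_saline against WT_saline, the log2 difference of Fzd3 was 1.14, given without a test.

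Fzd9 has known roles in bone formation and in B cell development in mice. It had 97.0, 86.7 and 105 normalized counts in TG_AAV hearts, 61.9, 67.4 and 83.1 in TG_saline hearts, 12.6, 28.4 and 22.5 in WT_AAV hearts, and 23.3, 20.6 and 15.2 in WT_saline hearts. All TG_AAV libraries were above all other libraries, and all TG_saline libraries were above all wild-type ones. Fzd9 rose to 96.2 ± 9.19 in TG_AAV hearts, against 21.2 ± 7.96 in WT_AAV hearts (SD, n = 3 each), a log2 difference of 2.20 (SE 0.27, limma, adjusted p = 0.00016) and a 4.59-fold change. The wild-type values rest on few reads, 11 to 28 in each WT_AAV library and 14 to 21 in each WT_saline library, against 87 to 133 in each TG_AAV library. The saline contrast gave a log2 difference of 1.80 for Fzd9, again without a test. Both calls against WT_AAV held in each of the 26 alternatives tried, with log2 differences between 1.52 and 1.70 for Fzd3 and between 1.71 and 2.44 for Fzd9.

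With respect to the groups as a whole, 2 of the 9 genes, Fzd3 and Fzd9, did not overlap between the 6 transgenic and the 6 wild-type libraries, against 5.36% of all 13030 tested genes. The choice of the members used part of these libraries, so nothing is read from that count. In the saline contrast 0.0998% of tested genes passed the threshold.

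Of the 9 Frizzled genes, 4 passed the threshold between TG_AAV and WT_AAV hearts, against 18.8% of all tested genes. Fzd3 and Fzd9 were the 2 that were higher, where 10.6% of all genes were higher. Fzd4 and Fzd8 were the 2 that were lower, where 8.17% of all genes were lower. The median log2 difference was -0.059 over the 9 Frizzled genes and 0.0043 over all tested genes. The groups did not overlap for 5 of the 9 genes, the 4 above and Fzd2, against 38% of all tested genes. The family was chosen on Fzd3 and Fzd9 with earlier results known, so nothing is read from these 2 genes in the counts above.

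Fzd4 binds Norrin as well as Wnts and is needed for the growth of retinal vessels. It had 710, 728 and 788 normalized counts in TG_AAV hearts, 869, 892 and 814 in TG_saline hearts, 1005, 956 and 973 in WT_AAV hearts, and 827, 960 and 1070 in WT_saline hearts. The TG_AAV libraries lay below every other library. Fzd4 fell to 742 ± 40.7 in TG_AAV hearts, against 978 ± 24.9 in WT_AAV hearts (SD, n = 3 each), with a log2 difference of -0.40 (SE 0.09, limma, adjusted p = 0.00971). Without the 3 libraries with Myl7 above 1000, namely TG_AAV 1, WT_AAV 1 and WT_AAV 3, the difference was -0.34 and the call was lost (adjusted p = 0.227). That omission leaves WT_AAV 2 as the only WT_AAV library, which is assumed to vary like the libraries of the other groups.

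Of the endothelial markers, 1 of 5 passed against each of the other groups. All tested genes passed at 18.8% against WT_AAV, 18.7% against WT_saline and 6.09% against TG_saline. Their summed normalized count, over Pecam1, Cdh5, Kdr, Tie1 and Tek, was 7664 to 9476 in TG_AAV hearts, 9044 to 10573 in TG_saline hearts, 9063 to 11331 in WT_AAV hearts and 10427 to 10913 in WT_saline hearts. The range in TG_AAV hearts overlapped those in TG_saline and WT_AAV hearts. Cdh5 was lower in TG_AAV hearts than in WT_AAV, TG_saline and WT_saline hearts, and the other 4 markers did not pass. All 5 were detected in every group. The part of the cell mixture in the Fzd4 result was not tested, and in RNA from whole ventricles fewer cells of a type and less RNA per cell cannot be told apart.

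Fzd8 belongs with Fzd5 to a closely related pair of receptors, and both act in eye development in mice. Fzd8 had 72.9, 83.7 and 96.3 normalized counts in TG_AAV hearts, 148, 125 and 129 in TG_saline hearts, 110, 209 and 120 in WT_AAV hearts, and 172, 177 and 151 in WT_saline hearts. All TG_AAV libraries were lower than all others, and WT_AAV 2 was the highest of the 12. Fzd8 averaged 84.3 ± 11.7 in TG_AAV hearts, against 146 ± 54.4 in WT_AAV hearts and 167 ± 14.1 in WT_saline hearts (SD, n = 3 each). It fell by 0.74 on the log2 scale against WT_AAV (SE 0.20, limma, adjusted p = 0.023) and by 0.98 against WT_saline (SE 0.20, limma, adjusted p = 0.005). The call against WT_AAV was lost without WT_AAV 2 (log2 difference -0.45, adjusted p = 0.0696), without TG_AAV 1 (-0.64, adjusted p = 0.0908) and without TG_AAV 2 (-0.74, adjusted p = 0.0627), and in a fit of only those groups (adjusted p = 0.0604). The call against WT_saline held in all 26 alternatives, with adjusted p of at most 0.0261.

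Against WT_saline hearts, TG_AAV hearts differed in 6 of the 9 Frizzled genes, where 18.7% of all tested genes passed. This comparison shares the WT_saline libraries with the contrast used in the choice, so nothing is read from the 2 genes Fzd3 and Fzd9 in that count. Fzd2, Fzd3 and Fzd9 were higher, and Fzd4, Fzd6 and Fzd8 were lower. The median log2 difference was 0.051 over the 9 genes and -0.0071 over all tested genes. The groups did not overlap for 7 of the 9 genes, against 38.3% of all tested genes. The log2 differences of Fzd3 and Fzd9 were 1.44 and 2.25, given as a description with no p because the choice used the same WT_saline values. Of the other 7 genes, 4 passed. Fzd4 differed by -0.35 (limma, adjusted p = 0.0179), a call lost without WT_saline 3, without TG_AAV 1, without TG_AAV 2 or without the 3 libraries rich in Myl7 (adjusted p up to 0.0859).

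Fzd6 patterns hair and skin in mice and shares its polarity role with Fzd3. Its normalized counts were 352, 371 and 330 in TG_AAV hearts, 418 in each of the 3 TG_saline hearts, 351, 427 and 455 in WT_AAV hearts, and 435, 420 and 479 in WT_saline hearts. The TG_AAV libraries lay below both saline groups and overlapped only WT_AAV 1. Fzd6 differed from WT_saline by -0.34 (SE 0.10, limma, adjusted p = 0.034), and the call was lost in 7 of 26 alternatives, among them those without WT_saline 1, WT_saline 3, TG_AAV 1, TG_AAV 2 or TG_AAV 3 (adjusted p from 0.0535 to 0.127). Against WT_AAV the log2 difference of -0.22 did not pass (SE 0.10, limma, adjusted p = 0.147), and it passed without WT_AAV 1 (-0.33, adjusted p = 0.0264).

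Fzd2, which with Fzd1 and Fzd7 forms a subfamily of close relatives, had 117, 109 and 134 normalized counts in TG_AAV hearts and 106, 55.2 and 102 in TG_saline hearts. It had 62.1, 84.2 and 85.7 in WT_AAV hearts and 63.3, 74.4 and 52.1 in WT_saline hearts. The TG_AAV libraries were above all 9 control libraries, and the nearest of these was TG_saline 1. Fzd2 rose to 120 ± 13.2 in TG_AAV hearts, against 63.3 ± 11.2 in WT_saline hearts (SD, n = 3 each), with a log2 difference of 0.92 (SE 0.24, limma, adjusted p = 0.016). The call was lost without WT_saline 3 (adjusted p = 0.0537), without TG_AAV 3 (adjusted p = 0.0679) and without the 3 libraries rich in Myl7 (adjusted p = 0.0515). Against WT_AAV the log2 difference of 0.64 did not pass (SE 0.24, limma, adjusted p = 0.0773), though it passed without TG_saline 2 (adjusted p = 0.0259), in a fit of only those groups (adjusted p = 0.0323) and with a term for libraries with Myh2 reads (log2 0.80, adjusted p = 0.00617).

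Some fibroblast markers also differed between groups. Their summed normalized count, over 6 markers, was 14032 to 15288 in TG_AAV hearts, 9861 to 10892 in TG_saline hearts, 9509 to 13178 in WT_AAV hearts and 9857 to 10266 in WT_saline hearts. Against WT_saline, 3 of the 6 markers were higher, namely Col1a2, Dcn and Pdgfra, where 18.7% of all tested genes passed in either direction. Against TG_saline, Dcn and Pdgfra were higher, where 6.09% of all tested genes passed, and against WT_AAV none of the 6 passed. All 6 were detected in every group, and their part in the Fzd2 result was not tested. The summed markers of ventricular heart muscle were lower, at 554184 to 599866 in TG_AAV hearts, 622558 to 692917 in TG_saline hearts, 670328 to 756453 in WT_AAV hearts and 670495 to 765459 in WT_saline hearts. Of those 6 markers, Ryr2 and Tnnt2 were lower in TG_AAV hearts than in either wild-type group. In either direction, 18.8% of all tested genes passed against WT_AAV and 18.7% against WT_saline. Fzd3 and Fzd9 were higher while these sums were lower, and the part of the cell mixture in their levels was not tested.

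The other 3 receptors did not pass in any of these comparisons. Fzd1, which acts with Fzd2 in closing the palate and the ventricular septum in mouse embryos, ranged from 141 to 222 normalized counts in TG_AAV hearts and from 161 to 255 over the 9 control hearts. Fzd5, needed for vessels of the yolk sac and placenta, ranged from 170 to 220 in TG_AAV hearts and from 156 to 247 over the control hearts. Fzd7, which works in many stem and progenitor cells, ranged from 215 to 286 in TG_AAV hearts and from 180 to 291 over the control hearts. For all 3 genes the TG_AAV range lay mostly or wholly inside that of the controls, apart from the lowest library of Fzd1. Against WT_AAV their log2 differences were -0.059 for Fzd1 (95% interval -0.49 to 0.38), -0.17 for Fzd5 (-0.50 to 0.16) and 0.15 for Fzd7 (-0.19 to 0.48). Against WT_saline, Fzd7 had 215 to 286 normalized counts in TG_AAV hearts and 180 to 204 in WT_saline hearts, which do not overlap. That log2 difference of 0.40 (95% interval 0.059 to 0.73) did not pass (limma, adjusted p = 0.0968).

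Taking TG_AAV hearts against the mean of all 3 control groups, 6 of the 9 genes passed, where 21.7% of all tested genes did. The controls include both saline groups whose values the choice used, so Fzd3 (log2 difference 1.11) and Fzd9 (1.63) are described with no p and nothing is read from their place in the count. The other 4 were Fzd2 at 0.68 (limma, adjusted p = 0.0226), Fzd4 at -0.32 (0.00886), Fzd6 at -0.27 (0.0338) and Fzd8 at -0.80 (0.00436), as log2 differences with adjusted p. The median was -0.054 over the 9 genes and -0.0031 over all tested genes. For 4 of the 9 genes, Fzd2, Fzd4, Fzd8 and Fzd9, the 3 TG_AAV libraries lay outside the range of the 9 control libraries, against 17.5% of all tested genes. Without TG_AAV 1, the calls of Fzd2, Fzd4 and Fzd6 were lost and 3 remained, Fzd3, Fzd8 and Fzd9. Fzd2 was also lost without TG_AAV 2 (adjusted p = 0.0535) or TG_AAV 3 (0.117), and Fzd6 in 9 of 25 alternatives, among them the omission of any TG_AAV or TG_saline library or of WT_AAV 2 (adjusted p from 0.0509 to 0.165).

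The vector was compared with saline separately in each genotype. Each of these comparisons shares a saline group with the contrast used in the choice, so nothing is read from Fzd3 and Fzd9 in their counts. In transgenic hearts, TG_AAV against TG_saline, limma called 0 of the 9 Frizzled genes, where 6.09% of all tested genes passed. At an unadjusted p under 0.05 there were 3, namely Fzd4, Fzd6 and Fzd8, where 2711 of the 13030 tested genes were under it. While edgeR called 0 of the 9 and DESeq2 called 1, Fzd8, they called 6.68% and 9.09% of all tested genes. Fzd8 differed by -0.67 (SE 0.20, limma, adjusted p = 0.073), with all 3 TG_AAV values below all TG_saline values. It passed without WT_AAV 1 (adjusted p = 0.0493), without WT_AAV 2 (0.0136) and in a fit of only those groups (0.0135). Those WT_AAV libraries enter this comparison only through the shared estimate of the spread. Of the remaining genes that differed from wild type, the log2 differences were 0.50 for Fzd2 (95% interval -0.012 to 1.01), -0.21 for Fzd4 (-0.41 to -0.011) and -0.25 for Fzd6 (-0.47 to -0.033). Those of Fzd3 and Fzd9, 0.30 and 0.44, are given without an interval because the choice used their TG_saline values. The groups did not overlap for 5 of the 9 genes, Fzd2, Fzd4, Fzd6, Fzd8 and Fzd9, against 33.8% of all tested genes. The median was -0.034 over the 9 genes and -0.0014 over all tested genes.

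In wild-type hearts, WT_AAV against WT_saline, limma called 0 of the 9 genes, and 0% of all tested genes passed. None was under 0.05 unadjusted, where 514 of the 13030 tested genes were, and edgeR and DESeq2 also called 0 of the 9. The groups overlapped for all 9 genes, where 6.06% of all tested genes did not overlap. The log2 differences ran from -0.24 for Fzd8 (95% interval -0.68 to 0.20) to 0.29 for Fzd2 (-0.22 to 0.79). Those of Fzd3 and Fzd9 were -0.14 and 0.050, given without an interval because the choice used their WT_saline values.

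Whether the vector effect differed between the genotypes was tested as an interaction, that is TG_AAV against TG_saline less WT_AAV against WT_saline. It was called for 0 of the 9 genes by limma, where 0.852% of all tested genes passed. None was under 0.05 unadjusted, where 1522 of the 13030 tested genes were. edgeR and DESeq2 also called 0. The interaction contains the saline contrast used in the choice, so nothing is read from Fzd3 and Fzd9 in these counts. Their values, 0.44 for Fzd3 and 0.39 for Fzd9, are given as a description with no test. For Fzd8 the interaction was -0.42 (SE 0.29, limma, adjusted p = 0.603), with a 95% interval of -1.04 to 0.20.

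**Figure D3:**
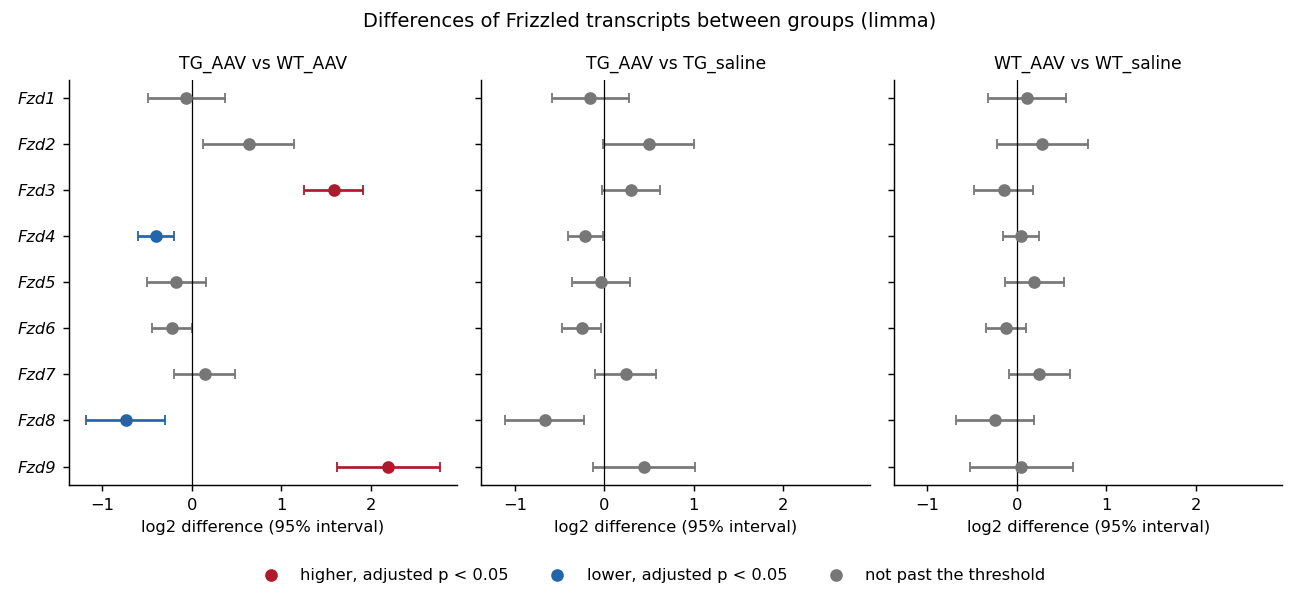
Points show the log2 difference of each Frizzled gene from limma, with its 95% interval, for TG_AAV against WT_AAV, TG_AAV against TG_saline and WT_AAV against WT_saline. Red and blue mark genes past an adjusted p of 0.05, which are Fzd3 and Fzd9 (higher) and Fzd4 and Fzd8 (lower) in the left panel, with none in the other panels. In those other panels nothing is read from the intervals of Fzd3 and Fzd9, since the choice used their saline values.

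The genes most alike to Fzd3 and Fzd9 were sought by Pearson's r of log2 values over the 12 libraries, as a description that follows the difference between genotypes. Fzd3 and Fzd9 themselves had r = 0.967. For Fzd3 the closest tested genes outside the family were Prkcz (r = 0.984), which encodes an atypical protein kinase C, Vill (0.971) and Snx8 (0.971). For Fzd9 they were Ppap2c (0.974), Prkcz (0.959) and Ssh3 (0.957). Prkcz had 74.4, 65.8 and 86.7 normalized counts in TG_AAV hearts, 43.5, 51.9 and 54.2 in TG_saline hearts, 13.8, 14.2 and 23.6 in WT_AAV hearts, and 18.9, 19.5 and 17.4 in WT_saline hearts. As for Fzd9, its TG_AAV libraries were the highest and its 2 wild-type groups overlapped. The r of Fzd4 with Fzd3 was -0.846 and with Fzd9 -0.852, and that of Fzd5 was -0.117 and -0.026. All these points share the same 12 libraries and their depth.

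The genes that lie beside Fzd3 and Fzd9 in the genome were read for the same reason. Extl3, next to Fzd3 on its downstream side, averaged 1427 ± 23.3 normalized counts in TG_AAV hearts and 1346 ± 145 in WT_AAV hearts (SD, n = 3 each). The difference did not pass (log2 0.090, SE 0.08, limma, adjusted p = 0.486). Baz1b, downstream of Fzd9, averaged 2177 ± 44.8 in TG_AAV hearts and 2348 ± 122 in WT_AAV hearts. Baz1b did not pass either (log2 -0.11, SE 0.09, limma, adjusted p = 0.443). On the upstream side, Fbxo16 beside Fzd3 had at most 22 reads and Fkbp6 beside Fzd9 at most 1 read in any library.

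Other genes of the Wnt pathway were taken from 9 lists of 96 genes, of which 62 were tested. Between TG_AAV and WT_AAV hearts, 8 of the 62 were higher and 5 were lower, 21.0% in all against 18.8% of all tested genes, with a median of 0.16 against 0.0043. Between TG_AAV and TG_saline hearts, 6 were higher and 3 were lower, 14.5% against 6.09%, with a median of 0.095 against -0.0014. Leaving out TG_AAV 1 or TG_AAV 2 left 2 of the 62 called against TG_saline, 3.23%, where 3.28% and 3.07% of all tested genes were then called. Leaving out TG_saline 1, 2 or 3 left 3, 5 or 3, which is 4.84%, 8.06% or 4.84%. Of all tested genes, 3.22%, 3.84% or 3.53% were then called. Against WT_AAV, leaving out WT_AAV 2 left 8, 12.9%, where 12.5% of all tested genes were called. In WT_AAV against WT_saline none of the 62 passed, as for all tested genes.

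Among 5 tested Wnt ligands, 2 were lower in TG_AAV than in WT_AAV hearts, where 8.17% of all tested genes were lower, and none was higher. Wnt5a, a ligand best known for signals that do not use beta-catenin, had 81.0, 70.7 and 93.9 normalized counts in TG_AAV hearts, 163, 101 and 167 in TG_saline hearts, 199, 180 and 214 in WT_AAV hearts, and 200, 221 and 176 in WT_saline hearts. The TG_AAV libraries were below all others. Wnt5a differed by -1.27 from WT_AAV (SE 0.18, limma, adjusted p = 0.000541) and by -0.78 from TG_saline (SE 0.18, limma, adjusted p = 0.0247). The call against TG_saline was lost without TG_saline 1, TG_saline 3, TG_AAV 1 or TG_AAV 2 (adjusted p up to 0.111), and that against WT_AAV without the 3 libraries rich in Myl7, with WT_AAV 2 as its only WT_AAV library (adjusted p = 0.0608). Wnt11, a ligand with a known part in heart development, differed from WT_AAV by -0.82 (SE 0.20, limma, adjusted p = 0.0133). This call was lost in 3 of 26 alternatives, among them those without WT_AAV 2 (0.0523) or TG_AAV 1 (0.0559). Without the 3 libraries rich in Myl7 the difference of Wnt11 was -0.88, with WT_AAV 2 as the only WT_AAV library.

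Both genes for Wnt secretion were higher in TG_AAV than in WT_AAV hearts, where 10.6% of all tested genes were higher. Wls, which carries Wnts to the cell surface, averaged 1195 ± 86.4 normalized counts in TG_AAV hearts, 877 ± 26.9 in TG_saline hearts and 744 ± 62.9 in WT_AAV hearts (SD, n = 3 each). It differed by 0.68 from WT_AAV (SE 0.11, limma, adjusted p = 0.000975), a call that held in all 26 alternatives, and by 0.45 from TG_saline (SE 0.11, limma, adjusted p = 0.0278), which was lost in 7, including the omission of any TG_saline library, TG_AAV 1 or TG_AAV 2. Porcn, which attaches the lipid to Wnts, differed from WT_AAV by 0.72 (limma, adjusted p = 0.0474) and was lost in 14 alternatives, among them the omission of each TG_AAV library, WT_AAV 1, WT_AAV 2, WT_saline 2 or TG_saline 3 (adjusted p up to 0.15).

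Of 8 tested co-receptors, 2 were higher against WT_AAV, where 10.6% of all tested genes were higher, and none passed against TG_saline. Lrp6, the co-receptor of beta-catenin signalling, differed by 0.23 (limma, adjusted p = 0.0276) and Ryk, a Wnt receptor with a kinase-like domain, by 0.32 (limma, adjusted p = 0.0205). Lrp6 was lost in 6 of 26 alternatives, among them those without WT_AAV 2 or any TG_AAV library (adjusted p up to 0.102) and a fit of only those groups (0.0661). Ryk was lost in 4, among them those without WT_AAV 3, TG_AAV 1 or TG_AAV 3 (up to 0.0753). The omission of the 3 libraries rich in Myl7 leaves WT_AAV 2 alone on that side, with log2 differences of 0.28 for Lrp6 and 0.27 for Ryk. Of 4 tested genes that set Frizzled turnover at the cell surface, 1 passed in both comparisons. All tested genes passed at 18.8% against WT_AAV and 6.09% against TG_saline. Lgr6, a receptor for R-spondins, had 311, 318 and 283 normalized counts in TG_AAV hearts, 699, 610 and 585 in TG_saline hearts, 683, 619 and 665 in WT_AAV hearts, and 852, 513 and 697 in WT_saline hearts. All TG_AAV libraries were below all others. Lgr6 differed by -1.11 from WT_AAV (SE 0.15, limma, adjusted p = 0.000275) and by -1.05 from TG_saline (SE 0.15, limma, adjusted p = 0.00115), and both calls held in all 26 alternatives.

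In the list of 7 tested secreted Wnt inhibitors, 2 passed against WT_AAV and 2 against TG_saline. In these comparisons 18.8% and 6.09% of all tested genes passed. Kremen1 was higher in both comparisons. It encodes a membrane receptor for the Dkk inhibitors and is not itself secreted. Kremen1 averaged 3863 ± 28.8 normalized counts in TG_AAV hearts, 2858 ± 138 in TG_saline hearts and 2563 ± 326 in WT_AAV hearts (SD, n = 3 each), with log2 differences of 0.44 from TG_saline (limma, adjusted p = 0.0247) and 0.60 from WT_AAV (limma, adjusted p = 0.00171). The call against TG_saline was lost when any library of TG_AAV or TG_saline was left out (adjusted p up to 0.101), and that against WT_AAV without the 3 libraries rich in Myl7, with WT_AAV 2 alone on that side (0.0588). Wif1, which binds Wnts outside the cell, differed from TG_saline by 1.75 (limma, adjusted p = 0.0253) and did not pass against WT_AAV. Its call was lost without TG_saline 2 (1.22, adjusted p = 0.0776), TG_saline 3, TG_AAV 1 or TG_AAV 2. Wif1 averaged 122 ± 50.4 in TG_AAV hearts and 38.4 ± 22.7 in TG_saline hearts. The means were 92.8 ± 33.8 in WT_AAV hearts and 79.9 ± 10.5 in WT_saline hearts, and the TG_AAV libraries overlapped both wild-type groups. Sfrp5, a decoy for Wnts, differed from WT_AAV by -1.92 (limma, adjusted p = 0.0453). It had 3.99 to 31.5 normalized counts over the 12 libraries and lost the call in 10 of 25 alternatives, among them the omission of any WT_AAV library, TG_AAV 2, TG_AAV 3, WT_saline 2 or TG_saline 3.

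Of 15 tested intracellular transducers, Ctnnb1, the gene of beta-catenin, was higher in TG_AAV than in WT_AAV hearts. Bcl9, a partner of beta-catenin in the nucleus, was lower. In that comparison 18.8% of all tested genes passed. Ctnnb1 averaged 8524 ± 296 normalized counts in TG_AAV hearts, 6614 ± 598 in TG_saline hearts and 5764 ± 381 in WT_AAV hearts (SD, n = 3 each). It differed by 0.57 from WT_AAV (SE 0.08, limma, adjusted p = 0.000678) in a call that held in all 26 alternatives, and by 0.37 from TG_saline (SE 0.08, limma, adjusted p = 0.0212) in a call lost without TG_saline 1, TG_saline 3, TG_AAV 1 or TG_AAV 2 (up to 0.103). Bcl9 differed from WT_AAV by -0.77 (SE 0.14, limma, adjusted p = 0.00231) and was lost without the 3 libraries rich in Myl7, with WT_AAV 2 as the only WT_AAV library (adjusted p = 0.109). Of 9 tested target genes, 1 passed against WT_AAV, where 18.8% of all tested genes did. Wisp2 differed by 1.47 (limma, adjusted p = 0.0443). The call was lost in 11 alternatives, among them the omission of any library of WT_AAV, TG_AAV 1, TG_AAV 2, WT_saline 1 or TG_saline 2. Without the 3 libraries rich in Myl7 its log2 difference was 0.76 (adjusted p = 0.579), taken against WT_AAV 2 alone. None of the target genes passed against TG_saline, where 3 were under 0.05 unadjusted, as were 2711 of the 13030 tested genes.

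Of 11 tested planar polarity partners, 1 passed against WT_AAV and 3 against TG_saline. In these comparisons 18.8% and 6.09% of all tested genes passed. Prickle2, a cytoplasmic protein of that pathway, had 445, 434 and 438 normalized counts in TG_AAV hearts and 223, 263 and 242 in TG_saline hearts. It had 215, 304 and 339 in WT_AAV hearts and 238, 238 and 315 in WT_saline hearts. The TG_AAV libraries were above all others. Prickle2 differed by 0.85 from TG_saline (SE 0.16, limma, adjusted p = 0.00583), a call that held in all 26 alternatives, and by 0.64 from WT_AAV (SE 0.16, limma, adjusted p = 0.0123), lost without the 3 libraries rich in Myl7 (0.52, adjusted p = 0.143), with WT_AAV 2 as the only WT_AAV library. Daam2, which links Dishevelled to the actin skeleton, differed from TG_saline by 0.50 (limma, adjusted p = 0.0371) and Vangl1, a membrane protein of the polarity pathway, by -0.57 (limma, adjusted p = 0.0298). Daam2 was lost without any library of TG_AAV, without TG_saline 1 or 2 or without WT_saline 1, and Vangl1 without TG_saline 1, TG_saline 3, TG_AAV 1 or TG_AAV 2 (adjusted p up to 0.138 and 0.129).

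**Figure D4:**
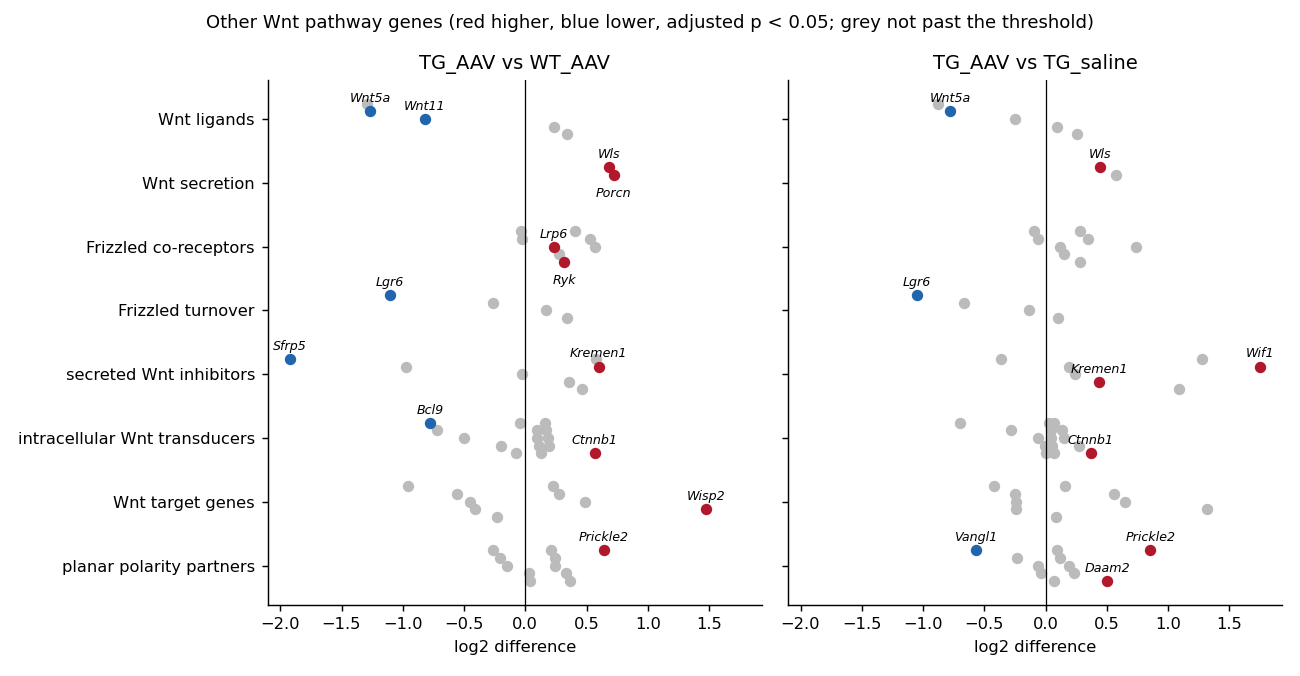
Each point is the log2 difference of a tested Wnt pathway gene outside the Frizzled family, by list, for TG_AAV against WT_AAV (left) and TG_AAV against TG_saline (right). Named red and blue points passed an adjusted p of 0.05, 8 higher and 5 lower on the left, and 6 higher and 3 lower on the right.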

How the data were processed

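Gene expression was measured by sequencing total RNA of mouse cardiac ventricles in 12 libraries, 3 in each of 4 groups, with groups and replicate numbers taken from the sample titles. The authors deposited 1 table with a normalized count for each gene symbol and library, a signal unit in which a library's read counts are scaled by a constant. The submitters' processing notes list Bowtie2 2.0, DESeq2 and the build mm9. For the counter, the gene annotation and the strand setting, nothing is stated in the sources used here. Values were whole multiples of the worth of 1 read, within 0.01 of a whole read for 100% of positive values, so reads could be recovered, 10233281 to 14911986 per library. The table held 27 symbols turned into dates, which were kept unnamed.

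The log2 of each normalized count, with 1 added, was tested with limma 3.58.1 (R 4.3.3), with a variance trend and 4 group means in 1 fit of the 12 libraries. Fold changes are on that scale and understate those of low genes. The 13030 genes with a mean of 10 or more were tested, two-sided, with Benjamini-Hochberg adjustment over all of them and a threshold of 0.05. Tests were limma unless another tool is named. Levels per kilobase used the merged exon length in GENCODE M21 on GRCm38, another build than the files', so they are approximate. Fzd3, Fzd5 and Fzd6 overlap genes that were not used here, and reads of overlapping genes cannot be told apart. Same-group libraries differed by more than counting noise (chi-square per degree of freedom of 5.23 or more), so none was treated as a library deposited in duplicate. Named genes were all 9 Frizzled genes, the called members of 9 Wnt pathway lists, up to 4 per list and direction, the 3 genes most correlated with Fzd3 and with Fzd9, and their neighbours. The members and lists were chosen with earlier results of these data known. Alternatives were pseudocounts of 0.5 and 5, no filter or a mean of 50, TMM and upper-quartile scaling, edgeR 4.0.16 and DESeq2 1.42.0 on recovered reads, a replicate term, only the groups compared, and each library left out. Others were added after seeing the data, namely terms for Xist and Myh2, and omission of the 3 libraries with Myl7 above 1000 or of WT_saline 3 with WT_AAV 3. The test script was tested on simulated data. Of 96 pathway symbols, 95 matched the table.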

Additional observations from a re-analysis of the deposited data

Results flagged for a closer look

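The vector effect on Lgr6, a receptor for R-spondins, differed between genotypes by a test of the interaction. TG_AAV against TG_saline less WT_AAV against WT_saline came to a log2 value of -1.01 (SE 0.21, limma, adjusted p = 0.0394). TG_AAV hearts averaged 304 ± 18.3 normalized counts and TG_saline hearts 631 ± 60.0, while WT_AAV hearts averaged 656 ± 33.1 and WT_saline hearts 687 ± 170 (SD, n = 3 each). All 3 TG_AAV libraries were below all TG_saline libraries, and the wild-type groups overlapped. The interaction kept its sign in all 25 alternatives and lost its call in 11, which were the omission of any WT_AAV, TG_saline or TG_AAV library, of the 3 libraries rich in Myl7 and of WT_saline 3 with WT_AAV 3, with adjusted p up to 0.31.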

How the results depend on the processing

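Counts of called Frizzled genes stayed within 1.5 times under most alternatives. In TG_AAV against TG_saline, 1 gene was called in place of 0 with DESeq2, in a fit of only those groups (Fzd8 in both) and with a term for Myh2 (Fzd2). Leaving out each library in turn gave 0 to 1 called genes in that comparison, 3 to 5 against WT_AAV, and 3 to 7 against WT_saline and against the mean of the controls. The low counts of 3 came without WT_saline 3 against WT_saline and without TG_AAV 1 against the mean, and both held Fzd3, Fzd8 and Fzd9. The interaction of Fzd9 was 0.39 and turned to -0.090 without the 3 libraries with Myl7 above 1000, an omission that leaves WT_AAV 2, the highest of its group for Fzd9, as the only WT_AAV library. Among 1289 values of single genes under alternatives, 140 lost and 9 gained a call. Fzd1 and Fzd5, never called, changed sign between alternatives, and Fzd7 was called in 2 alternatives against WT_saline and 3 against the mean. A replicate block kept the counts at 0 against TG_saline, 4 against WT_AAV, 6 against WT_saline and 6 against the mean, and at 0 for the vector in wild type and the interaction. Same-numbered libraries had correlations of -0.16 to 0.33, over 0.1 in 8 of 18, and 9 of 12 libraries correlated best with their own number on average, a hint from the data of a shared effect. The labels do not tie the numbers to animals or batches and not every correlation was over 0.1, so the numbers were not taken as pairs. Over all genes, 794 were called against TG_saline and 400 to 1708 in the alternatives. Against WT_AAV these were 2450 and 711 to 2967, against WT_saline 2432 and 1497 to 2812, against the mean 2830 and 1618 to 3418, for the vector in wild type 0 and 0 to 38, and for the interaction 111 and 37 to 277. The block called 982 against TG_saline and 156 for the interaction. With 3 libraries a group, differences as small as those of Fzd1 and Fzd5 were not detectable, and wild-type Fzd9 rests on 11 to 28 reads a library. The interaction and the mean of the controls use all groups, so no fit of fewer groups was run for them.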

Other observations

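Receptors of the same class outside Fzd1 to Fzd9 gave little signal or did not pass. Fzd10, the remaining Frizzled gene, had 0 to 5 reads in each library, below the filter, and was not tested. Smo, which shares the Frizzled fold but passes Hedgehog signals, averaged 265 ± 13.3 normalized counts in TG_AAV hearts, 222 ± 34.8 in TG_saline hearts, 219 ± 46.9 in WT_AAV hearts and 229 ± 44.9 in WT_saline hearts (SD, n = 3 each), and it did not pass in any comparison of TG_AAV hearts.

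Axin2, a feedback inhibitor widely read as a target of beta-catenin, was singled out after its values were seen. It had 102, 95.7 and 85.1 normalized counts in TG_AAV hearts, 72.5, 63.0 and 56.0 in TG_saline hearts, 85.1, 133 and 120 in WT_AAV hearts, and 119, 77.9 and 139 in WT_saline hearts. The TG_AAV libraries were above the TG_saline libraries and overlapped both wild-type groups. Axin2 did not pass against TG_saline (log2 0.56, SE 0.22, limma, adjusted p = 0.152) or against WT_AAV (log2 -0.23, SE 0.22, limma, adjusted p = 0.48).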
